A study of Mus musculus with 21 samples.

Results

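Dual PDS5 depletion was compared with loss of PDS5B alone in mouse embryonic stem cells (mESCs), using 6 of the 21 RNA-seq libraries of the series. The 6 libraries are all those labeled Pds5a-/- siPds5b (replicates 1 to 3) or Pds5b-/- siGLO (replicates 1 to 3) and were taken by those labels. The Pds5a-/- siPds5b cells carried a CRISPR edit of Pds5a and received an siRNA against Pds5b, and are called dual depleted mESCs here. The Pds5b-/- siGLO cells carried a CRISPR edit of Pds5b and received siGLO, a transfection control, and are called Pds5b-/- mESCs. All were v6.5 cells, a male line grown on gelatin, and RNA was taken 48 h after transfection with 50 nM siRNA. Both states were low in Pds5b, by siRNA in the former and by knockout in the latter, and the former also lacked PDS5A. The 3 libraries of a genotype came from a single edited clone, so the genotype, the clone and the siRNA cannot be told apart, and p-values measure only the spread between libraries. WT siGLO mESCs and Pds5a-/- siGLO mESCs, with 3 libraries each, gave the background levels.

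Cohesin is a ring of SMC1A, SMC3 and RAD21 with a STAG subunit, which is loaded onto chromatin by NIPBL and MAU2 and extrudes DNA loops that stop at CTCF. PDS5A and PDS5B are paralogs that bind RAD21. They help WAPL to release the ring from DNA, and they also help ESCO1 to acetylate SMC3, which holds the ring in place. In embryonic stem cells the ring is known for loops around genes that maintain pluripotency.

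The guides used for each clone are shown because they give the sites at which each gene was targeted. The insertions and deletions that the study reports for each clone cannot be read from these sites. They are printed from 5′ to 3′ with the protospacer adjacent motif in capitals where it could be read within the exon, and all match the plus strand of chromosome 5 in mm10. The Pds5a guides lie in coding sequence of exon 2 of 32 in transcript Pds5a-201, at chr5:65696769-65696788 and chr5:65696843-65696862, with 74 bases between the starts of the sites. The Pds5b guides lie in coding sequence of exon 3 of 35 in Pds5b-201, at chr5:150719930-150719949 and chr5:150720005-150720024, with 75 bases between the starts.
Pds5a sgRNA 1: acgtttgatcatttcatcggTGG
Pds5a sgRNA 2: ccgcactcacgacgccacagAGG
Pds5b sgRNA 1: tgataaagatgttcgtttacTGG
Pds5b sgRNA 2: cacgtctcccgataaactaa

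Total counts of the 6 libraries were between 18752413 and 22026367 (17311090 to 23989198 over all 21), and the 10 most abundant genes took 5.57% to 6.60% of the counts. The 8 embryonic stem cell markers summed to 3382 to 3681 CPM (counts scaled to the effective size of each library) in dual depleted mESCs. They summed to 3912 to 4553 CPM in Pds5b-/- mESCs and 5307 to 5586 CPM in WT mESCs. In dual depleted mESCs 6 of them were called lower and 1 (Fgf4) higher. Fgf4 lies in a run of neighboring genes on chromosome 7 that is described below. Outside such runs and chromosomes 8, X and Y, 4 of 5 markers were called lower and none was called higher. Fibroblast markers summed to 38.2 to 91.7, 30.6 to 38.6 and 66.2 to 91.1 CPM, respectively. The 8 fibroblast markers tested had a median log2 fold change of 0.99, with Col1a1 at 1.41 and Col1a2 at 1.79 without passing the test, and 1 (Thy1, 0.84) was called higher in dual depleted mESCs, with an adjusted p of 0.0303 without Pds5b-/- siGLO replicate 2. Col1a1 reached 650 counts in a dual depleted library and 195 in a Pds5b-/- library, whereas Lum had at most 2 counts. The part of such cells in the results, those on SRF targets and mesenchymal genes included, was not tested.

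Pds5b was low in both states, but not equally. It had 1073, 901 and 736 normalized counts in dual depleted mESCs and 278, 312 and 238 in Pds5b-/- mESCs, against a mean of 2219 ± 177 in WT mESCs (SD, n = 3). The states did not overlap, and stood at 40.7% and 12.4% of the WT mean. Pds5b was therefore 1.71 higher on the log2 scale in dual depleted mESCs (SE 0.12, edgeR adjusted p = 3.75e-10). Pds5a had 4082, 3806 and 3522 normalized counts in dual depleted mESCs and 6303, 5360 and 5474 in Pds5b-/- mESCs, a log2 fold change of -0.59 (SE 0.09, edgeR adjusted p = 1.41e-05). The edited clone thus kept 75.2% of the WT mean of Pds5a transcript, while Pds5b-/- mESCs stood at 113%. Transcripts of an edited allele can still be counted, so this level does not measure the protein. The exact two-sided permutation test over libraries gave p = 0.1 for each gene, the smallest that 20 arrangements allow.

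Among 19 tested genes for the ring, its loaders and its regulators, 3 (15.8%) were called higher and 3 (15.8%) lower, with a median log2 fold change of -0.04. These shares are near those of all genes, of which 13.6% were called higher and 12.6% lower. Pds5b and Pds5a, called higher and lower above, were themselves knocked down or edited, so their calls are not read as a response. SMC1A, SMC3, RAD21 and the STAG subunits were not called, at -0.03 for Smc1a, 0.02 for Smc3, -0.16 for Rad21, -0.07 for Stag1 and 0.05 for Stag2 on the log2 scale. The loader Nipbl was at -0.32 (edgeR adjusted p = 0.0185). Ctcf fell by 0.47 and the loader Mau2 by 0.36, and both lie on chromosome 8, most of whose genes were lower. The meiotic cohesin subunit Smc1b rose by 1.03 (edgeR adjusted p = 0.000782), with 245, 182 and 299 normalized counts against 110, 111 and 135. Rad21l, another meiotic subunit, was called at 2.04 with at most 28 normalized counts in a library, and its adjusted p was 0.0724 without Pds5a-/- siPds5b replicate 2.

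Across all genes, the dual depleted state differed widely from Pds5b-/- mESCs. Of 14963 tested genes, 3921 (26.2%) were differentially expressed genes (DEGs) at an edgeR adjusted p under 0.01, with 2036 (13.6%) higher and 1885 (12.6%) lower in dual depleted mESCs. The median log2 fold change of all tested genes was 0.03, and 1138 DEGs changed by at least 1 on the log2 scale, 817 of them higher. The split between directions was not stable, since more genes were lower than higher in 5 of the 6 fits that left out a library of either state. For these and all later results, fewer cells of a type and less RNA per cell cannot be told apart. The WT mean lay between both states for 2309 DEGs (58.9%), above both for 667 and below both for 945, and it was nearer to Pds5b-/- mESCs for 2674 (68.2%).

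Of the 12 largest increases, 4 were of Y-linked genes (Uty, Ddx3y, Uba1y and Eif2s3y). C330008G21Rik led the increases, with 293, 357 and 410 normalized counts in dual depleted mESCs and 6.33, 1.99 and 6.79 in Pds5b-/- mESCs. Its log2 fold change was 6.10 (SE 0.31, edgeR adjusted p = 5.66e-13), and its mean was 12.6 in WT mESCs and 152 in Pds5a-/- siGLO mESCs. The others were Uty (5.10), Ddx3y (4.89), Uba1y (4.70), Tgtp1 (4.69), Eif2s3y (4.69), Zbp1 (4.54), Nlrp4c (3.96), Efhc2 (3.92), Oasl2 (3.75), Ddx60 (3.64) and Cdkn1c (3.61). Ddx60, a helicase of antiviral defence, rose although it lies on chromosome 8. Nlrp4c, a gene of the oocyte and early embryo, had 217, 187 and 152 normalized counts against 17.9, 9.97 and 7.76.

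The largest decreases were led by Scn3a, a neuronal sodium channel. It had 4.44, 5.18 and 5.98 normalized counts in dual depleted mESCs and 171, 174 and 146 in Pds5b-/- mESCs, a log2 fold change of -4.95 (SE 0.32, edgeR adjusted p = 4.24e-11). Its level in Pds5b-/- mESCs was near the WT mean of 134, and the Pds5a-/- siGLO mean was 14.6. The others were Mest (-4.91), Nkx6-3 (-3.64), Inhbb (-2.97), Fgf17 (-2.95), Sox1 (-2.91), Gli1 (-2.77), Myh3 (-2.69), Ntn1 (-2.64), Ceacam1 (-2.63), Sgk2 (-2.60) and Xist (-2.50). Inhbb, a subunit of activin, had 53.3, 61.2 and 43.9 normalized counts against 456, 377 and 408, with a WT mean of 1065. Gli1, the target by which Hedgehog signaling is usually read, had 82.6, 65.3 and 106 against 496, 617 and 619. Ntn1, the secreted guidance cue netrin, had 139, 151 and 209 against 926, 1042 and 1134.

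Genes of chromosome 8 were lower together in dual depleted mESCs. Of 780 tested genes on it, 469 (60.1%) were called lower and 18 (2.31%) higher, and 668 (85.6%) had a negative log2 fold change. Their median was -0.52, a fold of 0.695, against 0.00 to 0.08 on the other autosomes, where 8.04% to 12.9% of genes were called lower. All 7 windows of 20 Mb along chromosome 8 had medians between -0.61 and -0.45. This chromosome holds 24.9% of all genes called lower. Relative to the WT mean, its median level was 0.30 to 0.31 in the 3 Pds5b-/- libraries and -0.22 to -0.21 in the 3 dual depleted libraries, so both clones stood away from WT, in opposite directions. The Pds5a-/- siGLO libraries stood at -0.21 to -0.17 and the WT siPds5b libraries at -0.03 to 0.01. The number of copies of chromosome 8 in each clone was not tested.

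**Figure D1:**
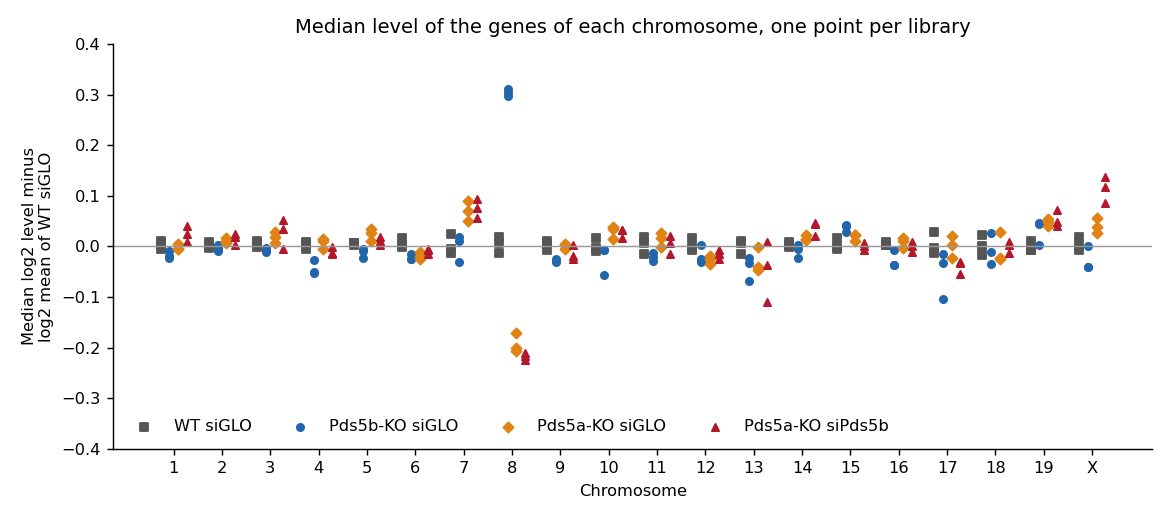
Median log2 level of the tested genes of each autosome and X relative to the mean of the WT siGLO libraries (y axis, log2 units), with one point per library for 4 groups. On chromosome 8 the 3 Pds5b-KO siGLO libraries sit at 0.30 to 0.31 and the 3 Pds5a-KO siPds5b libraries at -0.22 to -0.21, with the Pds5a-KO siGLO libraries beside the latter.

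The sex chromosomes differed in the opposite direction. Of 542 tested X-linked genes, 127 (23.4%) were called higher and 29 lower, with a median log2 fold change of 0.16. Of 6 tested Y-linked genes, 5 were called higher. Uty, a histone demethylase, had 86.1, 67.4 and 65.8 normalized counts in dual depleted mESCs, 2.11, 1.99 and 1.94 in Pds5b-/- mESCs and 60.3 ± 17.1 in WT mESCs (SD, n = 3). Eif2s3y, a translation initiation factor, had 810, 741 and 663 against 37.0, 26.9 and 22.3, with a WT mean of 86.6 and a Pds5a-/- siGLO mean of 561. Of the 6 genes, Uty, Ddx3y, Eif2s3y and Kdm5d had a lower mean in Pds5b-/- than in WT mESCs. Uba1y instead had 11.6, 11 and 15.5 normalized counts in Pds5b-/- mESCs against a WT mean of 4.48, and its Pds5a-/- siGLO mean was 120. For Uba1y, Zfy1 and Eif2s3y the Pds5a-/- clone was thus above WT with and without siPds5b. Kdm5d, with no count in Pds5b-/- mESCs, had at most 4.98 normalized counts in dual depleted mESCs and a WT mean of 36. Xist, the noncoding RNA of X inactivation, was low throughout, with 17.8, 13.5 and 15.9 normalized counts against 104, 86.7 and 79.6. It overlaps the antisense gene Tsix, and the use of strand in counting is not given in the sources used here.

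Smaller runs of neighboring genes also moved together. They were found from the median of 21 consecutive genes along each chromosome, in each group relative to WT, and their ends were set after the values were seen, so they are described without a test. On distal chromosome 7, chr7:138835823-141633011 (mm10, Mapk1ip1 to Ap2a2) held 64 tested genes, of which 47 were called lower and 2 higher in dual depleted mESCs, with a median log2 fold change of -0.75. Its median relative to WT was 0.69 to 0.75 in the Pds5b-/- libraries and -0.11 to 0.03 in the dual depleted libraries. Directly beyond it, chr7:141874813-145284011 (Tollip to Tpcn2, the last tested gene of the chromosome) held 41 tested genes, of which 34 were called higher and 2 lower, with a median of 1.13. There the Pds5b-/- libraries stood at -0.89 to -0.77 and the dual depleted libraries at 0.08 to 0.17. The departure from WT was therefore in the Pds5b-/- clone in both runs, upward in the inner and downward in the outer. Psmd13, a proteasome subunit in the inner run, had 3097, 3025 and 3010 normalized counts in dual depleted mESCs and 6004, 5338 and 5896 in Pds5b-/- mESCs (WT mean 3670). Ctsd, the lysosomal protease cathepsin D in the outer run, had 4941, 5518 and 5858 against 2178, 2223 and 2550 (WT mean 4624).

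**Figure D2:**
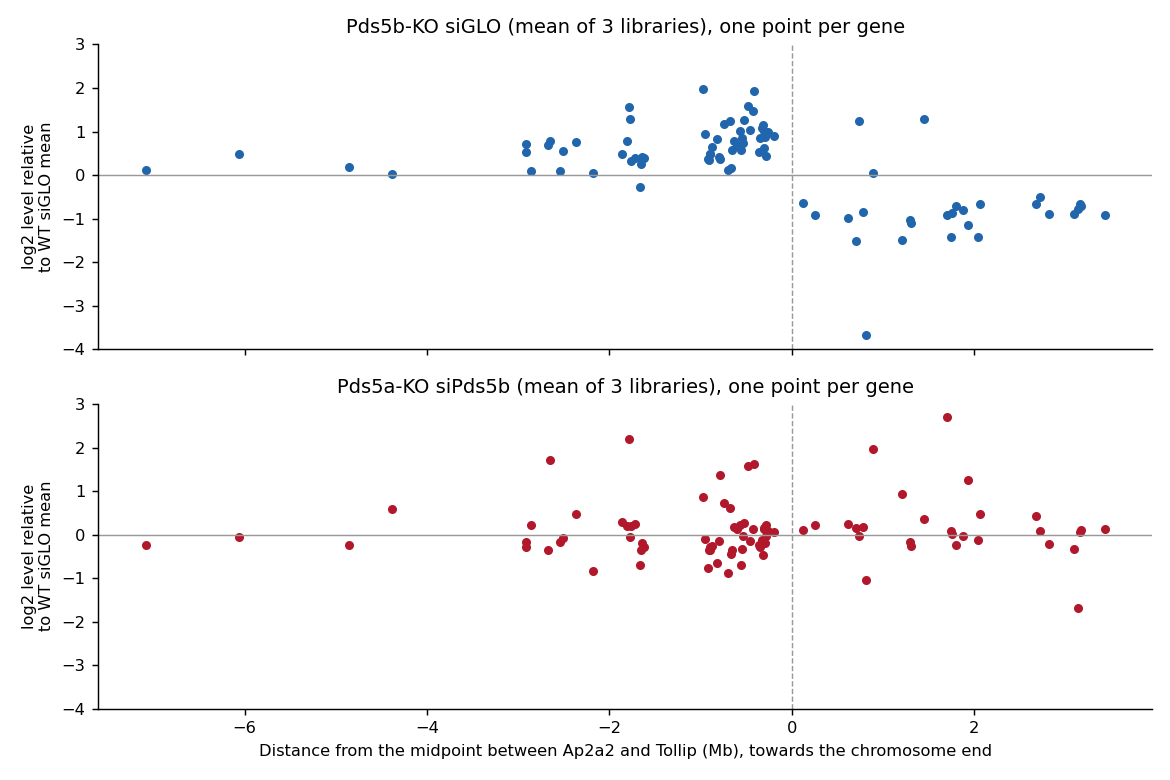
Log2 level of each gene with enough counts on distal chromosome 7 relative to the WT siGLO mean (y axis), against the distance of its start from the midpoint between Ap2a2 and Tollip in Mb (x axis), as means of 3 libraries. In Pds5b-KO siGLO (upper panel) points lie mostly above 0 left of the dashed line and mostly below 0 right of it, whereas in Pds5a-KO siPds5b (lower panel) both sides are centered near 0.

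Near the end of chromosome 12, all 15 tested genes of chr12:112653821-113189523 (Akt1 to Tmem121) had a negative log2 fold change and 11 were called lower. Again the Pds5b-/- libraries stood apart, at 0.69 to 0.74 above WT. On chromosome 15 the Pds5a-/- clone stood apart. There chr15:77915047-79605109 (Txn2 to Dmc1) held 41 tested genes, of which 40 had a negative log2 fold change and 30 were called lower, with a median of -1.05. Its median relative to WT was -0.90 to -0.71 in dual depleted mESCs, -0.89 to -0.79 in Pds5a-/- siGLO mESCs and 0.08 to 0.12 in Pds5b-/- mESCs. Eif3d, a translation initiation factor, had 4120, 4021 and 4104 normalized counts against 8952, 7750 and 7950, and a Pds5a-/- siGLO mean of 4519. The 4 runs held 126 DEGs, or 3.21% of all. Outside them and chromosomes 8, X and Y, 3147 of 13474 tested genes (23.4%) were DEGs, 1850 higher and 1297 lower. The same scan also flagged 8 windows on chromosome 7, centered from Trim68 to Usp17la, in dual depleted mESCs and in no other group. Their running median reached 0.66 relative to WT, and their genes are not set apart in the counts outside the 4 runs. The cause of these runs and of this stretch was not tested.

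Interferon-stimulated genes were higher in dual depleted mESCs. Of 31 tested members of a list of 34, 18 were called higher and 3 lower, with a median log2 fold change of 1.97, against 13.6% and 12.6% of all genes called in each direction and a median of 0.03. Oasl2, an antiviral protein of the oligoadenylate synthetase family, had 893, 941 and 1010 normalized counts in dual depleted mESCs and 62.3, 75.8 and 72.8 in Pds5b-/- mESCs. It rose by 3.75 on the log2 scale (SE 0.28, edgeR adjusted p = 1.06e-08), and its mean was 182 in WT and 223 in Pds5a-/- siGLO mESCs. Zbp1, a sensor of Z-form nucleic acids, had 266, 252 and 334 against 10.6, 14 and 11.7, with a WT mean of 95.5. Both genes were thus below WT in Pds5b-/- mESCs and above WT in dual depleted mESCs.

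Transcription factors, effectors and ligands of the interferon response were among the genes that rose. Irf1, a transcription factor induced by interferon, had 2859, 3118 and 3097 normalized counts in dual depleted mESCs and 438, 738 and 813 in Pds5b-/- mESCs, a log2 fold change of 2.19 (SE 0.26, edgeR adjusted p = 9.75e-06). Isg15, a ubiquitin-like modifier, had 80.8, 115 and 110 against 17.9, 12 and 23.3. Cxcl10, a chemokine, had 170, 242 and 171 against 26.4, 37.9 and 44.6. None of these overlapped between the states. The WT mean lay between both states for 12 of the 18 genes, above both for 3 (among them Herc6 and Xaf1) and below both for 3. Herc6, a ubiquitin ligase, had 70.1, 59.1 and 73.8 normalized counts in dual depleted mESCs, 11.6, 2.99 and 9.71 in Pds5b-/- mESCs and a mean of 237 in WT mESCs, so dual depletion left it below WT.

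Not all members rose. The signal transducer Stat2 was at 0.59 on the log2 scale without passing the test (edgeR adjusted p = 0.0187), while Irf9, a transcription factor that it binds, fell by 0.64 (edgeR adjusted p = 0.00114, and 0.0149 without Pds5b-/- siGLO replicate 2). Ifitm2 and Ifitm3, membrane proteins that restrict virus entry, were also called lower, and both lie in the inner run of chromosome 7, where Pds5b-/- mESCs stood above WT. Without chromosomes 8, X and Y and the 4 runs, 17 of 27 genes were called higher and 1 lower, with a median of 2.19. Of the other members, Rsad2 was at 3.53 and Ifih1 at 1.36 without passing the test.

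The core of the interferon-stimulated response element (GAAA, any 2 bases and GAAA again, searched on both strands) is shown in promoters of 3 of these genes. It was found in the 250 bases before the start of 9 of the 24 listed genes with a RefSeq promoter (37.5%), of which 5 were called higher (Cxcl10, Ifit1, Isg15, Oas1a and Oas1c; 13 of the 24 were called higher), and in 936 of 27025 promoters overall (3.46%). The sequences are RefSeq's, in build GRCm38.p6, written in the direction of the gene, with the match in capitals. In Ifit1 the marked match is on the opposite strand, and the stretch holds a further match in lower case. In Isg15 further matches overlap the marked one.
Cxcl10, chr5:92349068-92349127, minus strand: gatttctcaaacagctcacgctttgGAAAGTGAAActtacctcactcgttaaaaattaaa
Isg15, chr4:156200856-156200915, minus strand: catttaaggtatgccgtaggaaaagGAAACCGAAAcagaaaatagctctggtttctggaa
Ifit1, chr19:34640760-34640819, plus strand: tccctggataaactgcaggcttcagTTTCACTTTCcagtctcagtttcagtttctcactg

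**Figure D3:**
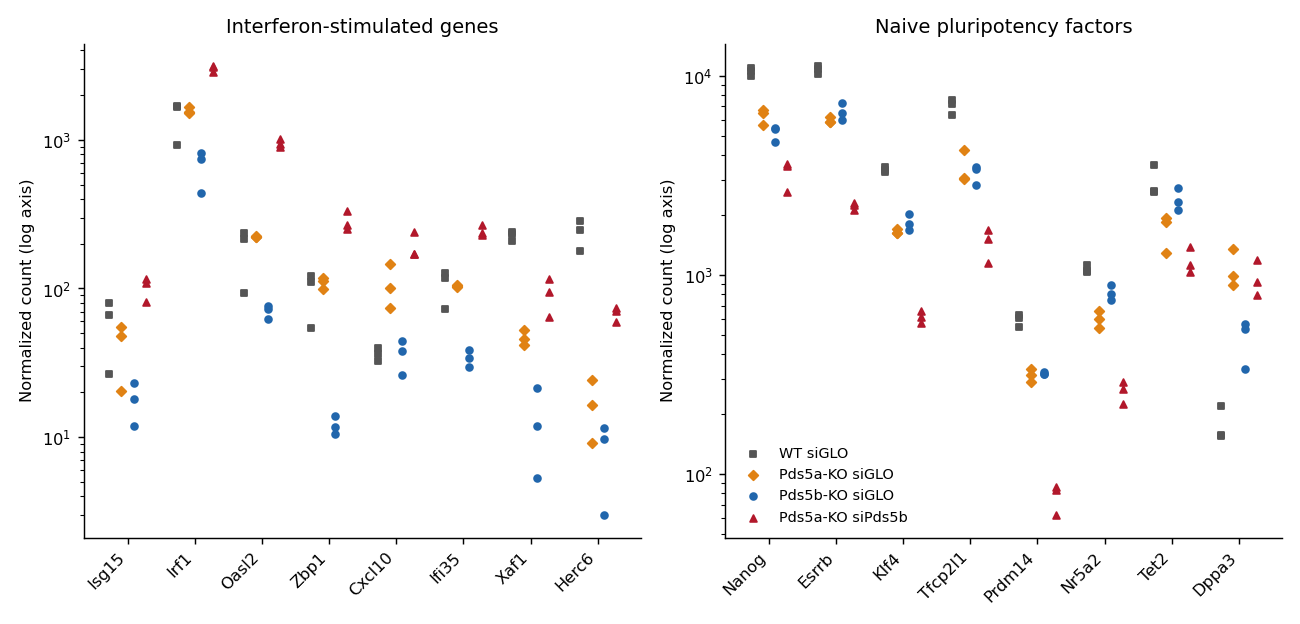
Normalized counts (log axis) of 8 interferon-stimulated genes (left) and 8 naive pluripotency factors (right), with one point per library for 4 groups. In the left panel the Pds5a-KO siPds5b libraries lie above the Pds5b-KO siGLO libraries for all 8 genes, and in the right panel they lie below them for all genes shown but Dppa3.

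Naive pluripotency factors were lower in dual depleted mESCs than in Pds5b-/- mESCs. Of 14 tested factors, 13 were called lower and 1 higher, with a median log2 fold change of -0.94, against 12.6% of all genes called lower. On chromosome 8, most of whose genes were lower, lie 2 of the 14. Outside chromosomes 8, X and Y and the runs, 10 of 11 were called lower and 1 higher, with a median of -1.02. Esrrb, an orphan nuclear receptor of the naive network, had 2245, 2104 and 2282 normalized counts in dual depleted mESCs and 7257, 6506 and 5989 in Pds5b-/- mESCs. It fell by 1.57 on the log2 scale (SE 0.08, edgeR adjusted p = 5.66e-13). Klf4, a Krüppel-like factor used in reprogramming, had 573, 657 and 617 against 2019, 1804 and 1669. Prdm14, which represses differentiation genes, had 62.1, 82.9 and 85.7 against 317, 325 and 319, and Nr5a2, a nuclear receptor, had 226, 266 and 290 against 890, 803 and 746. In all 13 genes the WT mean was above both states, so Pds5b-/- mESCs took a middle place. The WT mean was 10697 for Esrrb, 3366 for Klf4 and 592 for Prdm14, and the Pds5a-/- siGLO means were 5971, 1652 and 313, near those of Pds5b-/- mESCs.

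Nanog had 2602, 3594 and 3515 normalized counts in dual depleted mESCs and 4632, 5468 and 5417 in Pds5b-/- mESCs, and fell by 0.68 (SE 0.13, edgeR adjusted p = 0.000305). Its mean was 10453 ± 508 in WT mESCs (SD, n = 3), so Pds5b-/- mESCs again took the middle place. The 2 factors with the smallest decreases, Tbx3 at -0.67 and Klf2 at -0.59, depended on single libraries. The adjusted p of Tbx3 was 0.0294 without Pds5b-/- siGLO replicate 1, and that of Klf2 was 0.0248 without Pds5a-/- siPds5b replicate 1. Dppa3, a maternal factor that guards against DNA methylation, went the other way. It had 795, 1190 and 917 normalized counts against 337, 535 and 563, a rise of 1.01 (edgeR adjusted p = 0.00143), with a WT mean of 177.

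Of 15 tested general pluripotency genes, those shared by naive and primed cells, 8 (53.3%) were called lower and none was called higher. The shares of all genes were 12.6% and 13.6%. The median log2 fold change of the list was -0.35. Outside chromosomes 8, X and Y and the runs, 6 of 13 were called lower and the median was 0.09. Sox2 had 5006, 4355 and 4601 normalized counts in dual depleted mESCs and 8177, 8253 and 7775 in Pds5b-/- mESCs. It fell by 0.79 (SE 0.07, edgeR adjusted p = 9.97e-09). The means of WT and Pds5a-/- siGLO mESCs, 8070 and 7810, were near the Pds5b-/- level, so of these 4 groups dual depleted mESCs alone had a low mean. Pou5f1, which encodes OCT4, had 19430, 17770 and 17830 against 21040, 23680 and 26320, a decrease of 0.37 (edgeR adjusted p = 0.000979). The calls of Gdf3 (adjusted p 0.0166 without Pds5a-/- siPds5b replicate 3) and Sall4 (adjusted p 0.0377 without Pds5b-/- siGLO replicate 1) were lost when a library was left out.

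Among 14 tested formative and primed genes, 5 (35.7%) were called higher and 1 (7.14%) lower, against 13.6% and 12.6% of all genes. Pou3f1, also known as OCT6, had 2401, 1957 and 1514 normalized counts in dual depleted mESCs and 613, 555 and 587 in Pds5b-/- mESCs, a rise of 1.74 (SE 0.18, edgeR adjusted p = 4.69e-07). Otx2, which partners with OCT4 as cells leave the naive state, rose by 0.93 and Zic2 by 0.85. Fgf5, the usual marker of the primed epiblast, had 104, 64.3 and 58.8 against 13.7, 30.9 and 17.5. Its WT mean was 236, so dual depleted mESCs held less Fgf5 than WT mESCs, and its adjusted p was 0.0285 without Pds5b-/- siGLO replicate 1. Lef1 rose by 0.97, with an adjusted p of 0.0218 without Pds5b-/- siGLO replicate 3. Sox4 fell by 0.52.

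**Figure D4:**
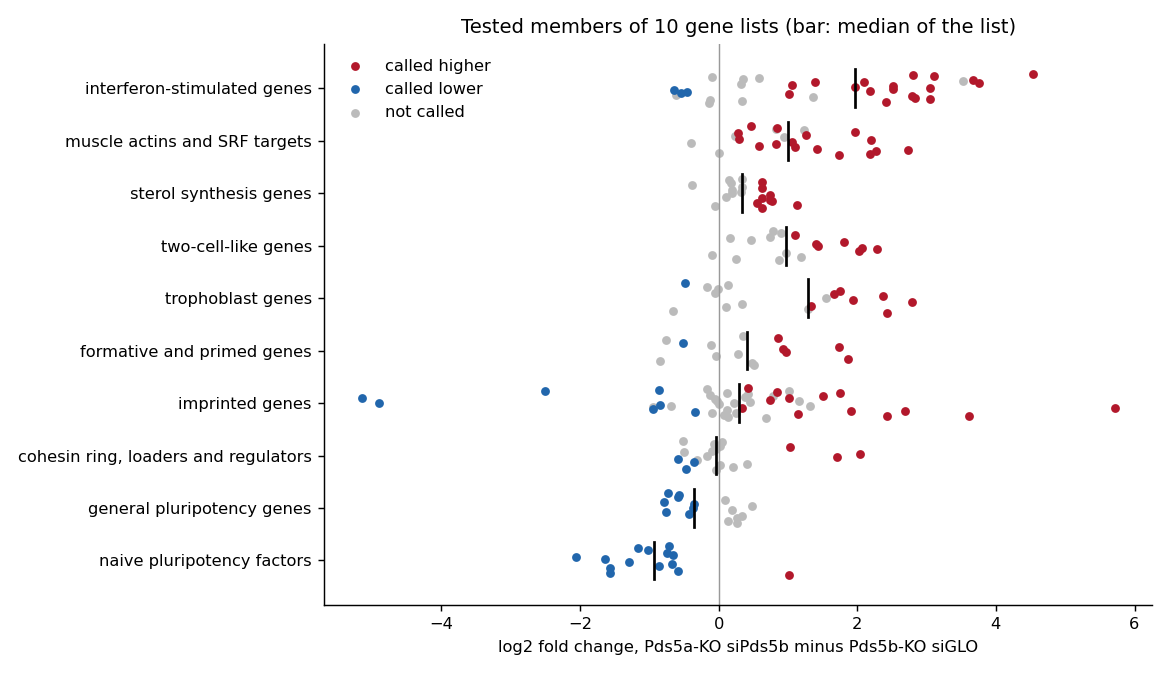
Log2 fold change (x axis, Pds5a-KO siPds5b minus Pds5b-KO siGLO) of each tested member of 10 gene lists, with called genes in color and a bar at each list's median. The medians of the interferon-stimulated genes (1.97) and of the muscle actins and SRF targets (1.01) lie right of 0, and that of the naive pluripotency factors (-0.94) lies left of it.

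Germ layer genes were mixed. Of 15 tested neuroectoderm genes, 3 (20%) were called higher and 6 (40%) lower, against 13.6% and 12.6% of all genes. Outside chromosomes 8, X and Y and the runs, 3 of 11 were called higher and 4 lower. The median log2 fold change was 0.48 there and 0.01 for the whole list. Sox1, an early neural factor on chromosome 8, had 132, 112 and 78.7 normalized counts in dual depleted mESCs and 1051, 744 and 637 in Pds5b-/- mESCs, a decrease of 2.91 (SE 0.23, edgeR adjusted p = 6.49e-09). Pax6, a factor of neural and eye development, had 91.5, 76.7 and 42.9 against 205, 185 and 222. The WT means were 301 for Sox1 and 43.9 for Pax6, so both genes were above WT in Pds5b-/- mESCs. En2 fell by 1.98, and Nes, an intermediate filament of neural progenitors, fell by 0.69 with an adjusted p of 0.0361 without Pds5a-/- siPds5b replicate 1. Of the 4 germ layer markers that the study followed, Pax6 and Nes were thus called lower and Gata6 and Sox17 were not called. Neurog2 was called higher from at most 1 count per Pds5b-/- library, to 29.3, 15.6 and 19.9 normalized counts.

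No primitive streak or mesoderm gene was called among 15 tested. Of 17 tested primitive endoderm genes, only Sparc (0.43) and Nid2 (0.70), which encode proteins of the basement membrane, were called. Both were higher, a share of 11.8% against 13.6% of all genes. No other tested member had a positive log2 fold change, and the median of the list was -0.52. The lineage factors Gata6 and Sox17 were at -0.57 and -0.31 without passing the test, and their libraries overlapped.

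Serum response factor (SRF) drives actin and muscle genes together with actin-sensing cofactors. Of 22 tested muscle actins and SRF targets, 16 (72.7%) were called higher and none was called lower, against 13.6% and 12.6% of all genes. The median log2 fold change was 1.01. Myl9, a myosin light chain, had 793, 1002 and 760 normalized counts in dual depleted mESCs and 240, 447 and 374 in Pds5b-/- mESCs, a rise of 1.27 (SE 0.18, edgeR adjusted p = 1.08e-05). Fhl2, a cofactor with LIM domains, had 94.1, 195 and 175 against 17.9, 49.9 and 32.0. Cnn1, the smooth muscle protein calponin, had 682, 975 and 851 against 212, 336 and 384. These did not overlap between the states, and the WT mean was below both states for 11 of the 16.

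Several genes of this list were lower in replicate 1 of both states, which widened their error. Tagln, an actin-binding protein, had 4160, 10420 and 8865 normalized counts against 1155, 2309 and 2529, and rose by 1.97 (SE 0.41, edgeR adjusted p = 0.0017). Acta1, skeletal actin on chromosome 8, had 641, 1803 and 2034 against 232, 525 and 582. Its adjusted p was 0.00991, and it passed the threshold in 6 of 13 alternative settings, with 0.0483 as the highest value when a library was left out. The calls of Srf (0.28), Flna, Cyr61 and Tpm2 were also lost without at least 1 library, with adjusted p-values up to 0.0237, 0.0615, 0.0583 and 0.0163. Actg2 was called with at most 10.4 normalized counts, too few for a fold. The cytoplasmic actin Actb was at 0.00. Muscle actins are close in sequence, and how the authors counted reads that match several genes is not given in the sources used here.

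The CArG box, the site that SRF binds, is shown in promoters of 3 of these genes. With 10 bases matched on both strands in the 250 bases before the start, it was found in 8 of 15 listed genes with a RefSeq promoter (53.3%), all called higher (Acta1, Actc1, Cnn2, Fhl1, Fhl2, Myl9, Srf and Vcl; 12 of the 15 were called higher), and in 439 of 27025 promoters overall (1.62%). The match is in capitals and coordinates are in GRCm38.p6.
Acta1, chr8:123894814-123894873, minus strand: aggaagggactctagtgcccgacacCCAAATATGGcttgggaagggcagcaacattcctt
Actc1, chr2:114052888-114052947, minus strand: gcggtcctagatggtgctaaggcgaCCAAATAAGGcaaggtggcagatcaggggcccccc
Myl9, chr2:156775278-156775337, plus strand: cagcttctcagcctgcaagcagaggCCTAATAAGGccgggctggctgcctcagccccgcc

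Trophoblast genes were partly higher. Of 17 tested, 7 (41.2%) were called higher and 1 (Tfap2c, 5.88%) lower, against 13.6% and 12.6% of all genes. The median log2 fold change was 1.28. Outside chromosomes 8, X and Y and the runs, 5 of 13 were called higher and 1 lower, and the median was 0.33. Ascl2 (2.43), called higher, lies in the outer run of chromosome 7, where Pds5b-/- mESCs stood below WT. Hand1, a factor of trophoblast giant cells, had 248, 281 and 278 normalized counts in dual depleted mESCs and 53.8, 34.9 and 28.1 in Pds5b-/- mESCs, a rise of 2.79 (SE 0.23, edgeR adjusted p = 1.79e-09). Its mean was 28.7 in WT and 326 in Pds5a-/- siGLO mESCs, so the Pds5a-/- clone was high with and without siPds5b. The keratins Krt7, Krt8 and Krt18 rose by 2.37, 1.66 and 1.94. Krt8 had 6596, 17190 and 17300 normalized counts against 2802, 4926 and 5291, and replicate 1 was again the lowest in both states. Left-out libraries gave adjusted p-values up to 0.0479 for Krt8, 0.018 for Krt18, 0.0429 for Plac1 and 0.0335 for Tfap2c. Cdx2, the factor that specifies trophectoderm, was at -0.66 (edgeR adjusted p = 0.178), and Gata3 at 0.33.

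Genes of the 2-cell-like state, a rare state of mESC cultures that expresses genes of the early embryo, were partly higher. Of 17 tested, 7 (41.2%) were called higher and none was called lower, against 13.6% and 12.6% of all genes. The median log2 fold change was 0.97. Usp17lb had 345, 293 and 180 normalized counts in dual depleted mESCs and 81.3, 32.9 and 54.4 in Pds5b-/- mESCs, with 75.8 in WT and 25.6 in Pds5a-/- siGLO mESCs. Zscan4c, a telomere regulator, had 601, 546 and 343 against 387, 243 and 264, and did not pass the test (0.74, edgeR adjusted p = 0.0558). Its mean was 613 in WT mESCs and 72.9 in Pds5a-/- siGLO mESCs, so the dual depleted level lay near WT. Zscan4d (0.0478 without Pds5b-/- siGLO replicate 2), Usp17ld (0.0583 without Pds5a-/- siPds5b replicate 1) and Zfp352 (0.0347 without the same library) lost their call. The Usp17l, Zscan4 and Tcstv genes are near-identical copies, so their reads can be split between copies and single values are uncertain. Usp17la, of the same family as Usp17lb, is the last window center of the chromosome 7 stretch raised in dual depleted mESCs.

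Imprinted genes are expressed from the allele of a given parent. Mest, one of them, had 153, 138 and 108 normalized counts in dual depleted mESCs and 4441, 3866 and 3688 in Pds5b-/- mESCs, a log2 fold change of -4.91 (SE 0.11, edgeR adjusted p = 4.11e-20). Its WT mean was 2046 and its Pds5a-/- siGLO mean was 152, so the knockouts departed from WT in opposite directions. The neighboring gene Copg2 was at 0.07. Peg13 had at most 3.11 normalized counts in dual depleted mESCs and 86.6, 91.7 and 74.7 in Pds5b-/- mESCs, against 19.7 in WT mESCs, and it lies within Trappc9, from which its reads cannot be separated without strand. Impact, a regulator of translation, had 3463, 3114 and 2844 against 6192, 5862 and 6054, with a WT mean of 2802.

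Of 42 tested imprinted genes, 13 (31.0%) were called higher and 7 (16.7%) lower, against 13.6% and 12.6% of all genes. Of the 13 higher, 7 lie in the outer run of chromosome 7, where Pds5b-/- mESCs stood below WT and non-imprinted neighbors such as Ctsd, Nap1l4 and Ccnd1 were also called higher. Cdkn1c, an inhibitor of cell division kinases, had 2401, 2729 and 2685 normalized counts in dual depleted mESCs and 231, 189 and 217 in Pds5b-/- mESCs, a rise of 3.61 (SE 0.17, edgeR adjusted p = 1.19e-11). Its mean was 403 in WT and 1657 in Pds5a-/- siGLO mESCs, so both clones moved. H19, a noncoding RNA of growth control, had 41.7, 59.1 and 69.8 against 8.45, 7.98 and 9.71, with a WT mean of 118. Kcnq1 had 7.99, 6.22 and 4.98 normalized counts and no count in any Pds5b-/- library, which puts it at least 2.67 higher on the log2 scale at a floor of 3 counts over the group. Kcnq1ot1, the antisense RNA that silences that domain, went the other way without passing the test, at 87.9, 84.0 and 165 against 215, 192 and 245 (-0.95, edgeR adjusted p = 0.0602). It overlaps Kcnq1, and the use of strand is not known, so the values of both genes are uncertain. Outside the runs and chromosomes 8, X and Y, 6 of 33 imprinted genes were called higher and 6 lower.

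Of the 6 imprinted genes called higher elsewhere, only Slc38a4 (0.84) kept its call with each library left out. The others were Inpp5f, Zrsr1, Nnat, Peg12 and Dio3, with adjusted p-values up to 0.0572, 0.0264, 0.0304, 0.0243 and 0.0307.

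Changes of sterol synthesis genes were small. Of 19 tested, 9 (47.4%) were called higher and none was called lower, against 13.6% and 12.6% of all genes. The median log2 fold change was 0.34, and in all 9 the WT mean lay between both states. Fdps, which makes farnesyl diphosphate, had 4496, 5027 and 5504 normalized counts in dual depleted mESCs and 2620, 2916 and 3311 in Pds5b-/- mESCs, a rise of 0.76 (SE 0.11, edgeR adjusted p = 5.49e-06). Dhcr7, the last enzyme of cholesterol synthesis, rose by 1.13 and lies in the outer run of chromosome 7. Insig1, Mvk, Sqle, Hmgcs1, Cyp51 and Fdft1 rose by 0.55 to 0.74.

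Genes of amino acid supply were among those that fell. Of 23 tested genes of amino acid stress and the unfolded protein response, 7 (30.4%) were called lower and 2 (8.7%) higher. The shares of all genes were 12.6% and 13.6%. The transporter subunits Slc7a5 and Slc3a2 fell by 1.32 and 0.85, and the serine and asparagine enzymes Shmt2, Asns, Psat1 and Phgdh by 0.36 to 0.71. Slc7a5 lies on chromosome 8, whereas Slc3a2 lies on chromosome 19. The regulators Atf4 and Ddit3 were both at -0.36 without passing the test.

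Of 29 tested DNA replication genes, 8 (27.6%) were called lower and 2 (6.9%) higher, against 12.6% and 13.6% of all genes. However, outside chromosomes 8, X and Y and the runs only Rrm2 and Cdc6 of 22 were called lower. Rrm2, a subunit of ribonucleotide reductase, had 3456, 3076 and 2877 normalized counts against 6186, 6021 and 6141 and fell by 0.96 (SE 0.07, edgeR adjusted p = 2.59e-10). Of 25 tested mitosis genes, 7 were called higher by 0.32 to 0.50 on the log2 scale, among them Mad2l1, Aurka, Top2a and Cdc20, and none was called lower, while the median of the list was -0.01. The share called higher was 28%, against 13.6% of all genes. Among 23 tested p53 targets 4 (17.4%) were called higher and 3 (13.0%) lower, shares near those of all genes, and the largest change was that of Pmaip1, which encodes the death factor NOXA. It had 3851, 3803 and 3018 normalized counts against 929, 1035 and 1231, a rise of 1.74 (SE 0.10, edgeR adjusted p = 9.34e-12). Cdkn1a, the p53 target that stops the cell cycle, was at 0.43 without passing the test.

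In the FGF and ERK list 3 of 20 tested genes (15%) were called higher and 4 (20%) lower, against 13.6% and 12.6% of all genes. The feedback inhibitor Spry4 fell by 1.38, and the receptor Fgfr2 rose by 0.89, with 440.4, 440.5 and 442.5 normalized counts against 261, 262 and 192. In the BMP list 5 of 20 (25%) were called higher and 1 (5.00%) lower. The ligand Gdf6 rose by 2.79, to 93.2, 130.6 and 139.5 normalized counts from 12.7, 21.9 and 17.5, and the target Id3 rose by 1.83. Bmp4, Id1 and Id4 were called higher too, with adjusted p-values up to 0.0355, 0.0162 and 0.067 without 1 library. In the Nodal list 1 of 19 (5.26%) was called higher and 2 (10.5%) lower, and in the LIF list 1 of 14 (7.14%) was called higher and 3 (21.4%) lower.

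Of 28 tested germline and meiosis genes, 10 (35.7%) were called higher and 7 (25%) lower, against 13.6% and 12.6% of all genes. Rhox5, a homeobox gene of the X chromosome, had 2012, 1390 and 1182 normalized counts in dual depleted mESCs and 402, 283 and 286 in Pds5b-/- mESCs, a rise of 2.24 (SE 0.29, edgeR adjusted p = 2.17e-05). Rhox6 and Rhox9 rose by 2.16 and 1.78, and the other 2 of the 5 tested Rhox genes (of 31 listed) were not called. The listed Rhox genes summed to 92.1 to 127 CPM in dual depleted mESCs and 21.3 to 31.4 CPM in Pds5b-/- mESCs. They summed to 109 to 136 CPM in Pds5a-/- siGLO mESCs and 14.7 to 20.9 CPM in WT mESCs. The summed level of the Pds5a-/- clone was thus high with and without siPds5b. Mael, a factor of transposon silencing, had 1024, 892 and 881 against 347, 246 and 265. Dnmt3l, the cofactor of de novo DNA methylation, had 23990, 19030 and 15770 against 9104, 6821 and 7425 and rose by 1.33 (SE 0.23, edgeR adjusted p = 0.000317). Among 14 tested genes of DNA methylation and demethylation, not all of them enzymes, Dnmt3l was the only gene called higher. Lower calls were 4, namely Tet2 (-1.02), Tet1 (-0.86), Zfp57 (-0.62) and Dnmt1 (-0.39). Tet1 (0.0221 without Pds5b-/- siGLO replicate 1) and Zfp57 (0.0117 without Pds5a-/- siPds5b replicate 3) lost their call.

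The shares of all genes called, 13.6% higher and 12.6% lower, are the background of the next lists. In the Polycomb list 7 of 30 tested genes (23.3%) were called higher and 2 (6.67%) lower, with Pcgf5 at 1.12 and Pcgf2 at -0.61, while the core subunits Ezh2 (-0.09), Suz12 (-0.04) and Rnf2 (-0.16) were not called. Of 39 listed Hox genes 22 had enough counts to be tested, and 4 were called higher and 1 lower. Of 59 listed protocadherins of the clusters 24 were tested, and 3 were called lower and none was called higher, with a median of -0.67, and Pcdhgb8 fell from 52.8, 45.9 and 48.5 to 8.88, 5.18 and 16.9 normalized counts. Of 83 tested ribosomal protein genes 3 were called higher and 4 lower. Rplp2, called lower, lies in the inner run of chromosome 7. In the glycolysis list 5 of 24 were called higher and 1 lower, and in the adhesion list 3 of 20 (15%) were called in each direction, near the share of all genes, with the mesenchymal factor Snai2 at 2.53 and Cdh1 at -0.07.

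The same clone was also compared with WT where PDS5B was present, in 6 other libraries. Between Pds5a-/- siGLO and WT siGLO mESCs, 2656 genes (17.8%) were DEGs, 1441 (9.63%) higher and 1215 (8.12%) lower. This count was the less stable one, with 1763 DEGs without Pds5a-/- siGLO replicate 2, and without WT siGLO replicate 3 936 genes were called higher. Both comparisons called 1306 genes, which is 33.3% of the DEGs of dual depletion against Pds5b-/- and 49.2% of the others. Of these, 1214 (93%) had the same direction and 92 the opposite. Across the 14963 genes, which are not independent replicates, the log2 fold changes of both comparisons had a Pearson correlation of 0.40 and a Spearman correlation of 0.45. The comparisons share the Pds5a-/- clone but no library.

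**Figure D5:**
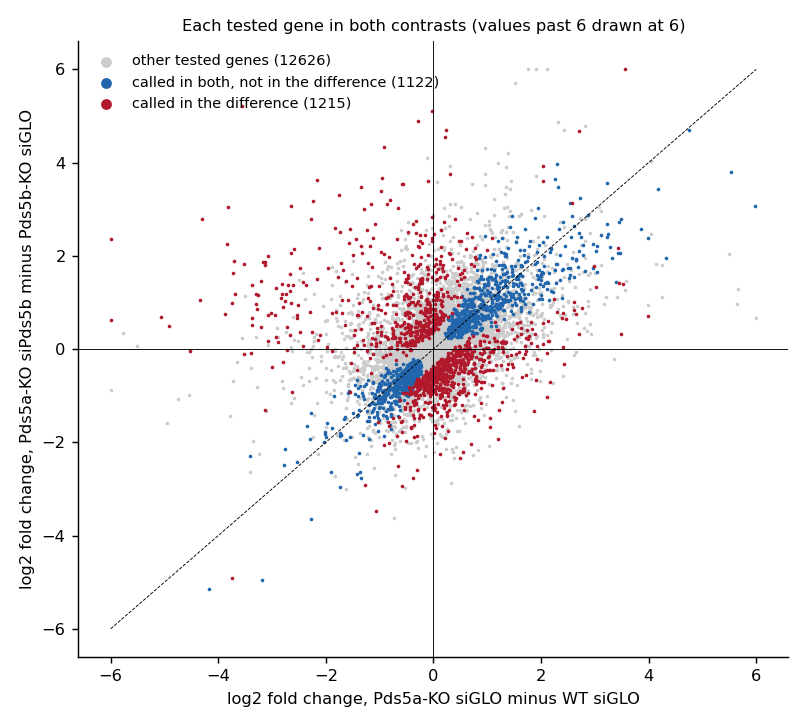
Log2 fold change of each tested gene between Pds5a-KO siGLO and WT siGLO (x axis) and between Pds5a-KO siPds5b and Pds5b-KO siGLO (y axis), with the dashed line where both are equal. The 1122 genes called in both but not in the difference lie mostly along the line, and the 1215 genes called in the difference lie away from it on both sides. These places follow from the classes, which were set by the test of that difference.

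The difference between the 2 comparisons was then tested as an interaction. It passed the threshold for 1215 genes (8.12%), 553 (3.70%) with a more positive and 662 (4.42%) with a more negative change in the PDS5B-deficient comparison. The median interaction was -0.34 on chromosome 8, against -0.04 to 0.05 on the other autosomes. A fit without chromosome 8 genes called 963 (79.3%) of the 1215 again. Of the 2615 genes called only in dual depletion against Pds5b-/-, 641 were called in the interaction, so for the rest a difference between the comparisons was not shown. The 3 genotypes are 3 clones, which cannot be told apart from the genotypes here.

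Counts in gene groups are given beside each other without a test between groups. Over all genes, 9.63% were higher and 8.12% lower in Pds5a-/- siGLO against WT, and 3.70% and 4.42% had a positive and a negative interaction. For SRF targets both went the same way, with 16 of 22 called higher in dual depletion against Pds5b-/- and 12 of 22 in Pds5a-/- siGLO against WT, and 2 positive and 1 negative gene in the interaction. For interferon-stimulated genes 18 of 31 were higher in the former, but 4 higher and 5 lower in the latter, and the interaction was positive for 14 and negative for 2. For the 2-cell-like genes, 7 of 17 were higher in the former and all 17 lower in the latter, with a median log2 fold change of -2.89, and the interaction was positive for all 17. For naive factors, 13 of 14 were lower in the former and 10 in the latter, and the interaction was negative for 6, among them Esrrb (-0.73), Klf4 (-0.55) and Prdm14 (-1.14). Sox2 had an interaction of -0.75 (edgeR adjusted p = 1.88e-05), with -0.79 in the former and -0.05 in the latter. Trophoblast genes had no positive and 3 negative genes in the interaction.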

How the data were processed

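Poly-A RNA-seq was measured in 7 conditions of mESCs with 3 libraries each. Per the labels and the study's methods, the authors mapped read pairs with STAR onto mm10, and used DESeq2 for testing. Each library was deposited as raw counts for 23412 gene symbols. Which counter and annotation were used, and whether strand was, is not given in the sources used here.

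Genes kept by edgeR's filter (14963) were normalized by TMM and tested in 1 quasi-likelihood model of the 21 libraries (edgeR 4.0.16, R 4.3.3). Adjustment followed Benjamini and Hochberg, with DEGs at an adjusted p under 0.01. Normalized counts are scaled to an effective library size of 19816922. Standard errors were derived from the log2 fold change and its F statistic. Positions came from GENCODE release M21, and promoters from RefSeq. All replicate pairs differed by more than sampling noise.

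The 6 libraries and 33 gene lists were chosen with earlier results of these data known. Named genes were both targets, the 12 largest increases and decreases (DEGs only, libraries not overlapping, average log2 CPM 1 or more), up to 4 called members per list and direction, markers that the study names and the 4 most positive and 4 most negative interactions. Some others were named to account for a whole list or run, after their values were seen.

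Alternatives were DESeq2 1.42.0, RLE normalization, scaling by library size alone, testing without a filter, a minimum of 10 counts in each library compared, only the groups compared, the replicate number as a block, an adjusted p under 0.05, log2 fold changes of 1 or more, leaving out each library and, chosen after seeing the data, leaving out chromosomes 8, X and Y. Some genes are not reported here. Plots used Python 3.11.15, pandas 2.3.3, numpy 2.4.6 and matplotlib 3.10.9.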

Additional observations from a re-analysis of the deposited data

Results flagged for a closer look

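The named genes given here were singled out because the change from Pds5b-/- siGLO to Pds5a-/- siPds5b mESCs differed from the change from WT siGLO to Pds5a-/- siGLO mESCs, with an edgeR adjusted p under 0.01 for the difference itself. Each value is that difference on the log2 scale, with both changes beside it in that order.

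Y-linked genes had differences of 5.12 for Uty (5.10 and -0.02), 5.19 for Ddx3y (4.89 and -0.29) and 1.98 for Eif2s3y (4.69 and 2.71). Uty and Ddx3y had few counts in the Pds5b-/- clone, and Eif2s3y was also high in Pds5a-/- siGLO mESCs. X-linked genes had 1.88 for Efhc2 (3.92 and 2.04), -1.85 for Xist (-2.50 and -0.65) and -2.89 for Tex13 (-0.71 and 2.18).

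Interferon-stimulated genes had 4.45 for Tgtp1 (4.69 and 0.24), 4.33 for Zbp1 (4.54 and 0.21), 3.45 for Oasl2 (3.75 and 0.30) and 6.86 for Herc6 (3.05 and -3.81). Herc6 was the only one of these 4 that fell in Pds5a-/- siGLO against WT siGLO mESCs.

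Pds5b itself had 1.62 (1.71 and 0.09), with knockdown in one state and knockout in the other. C330008G21Rik had 2.54 (6.10 and 3.56). The imprinted genes Cdkn1c and Mest had 1.58 (3.61 and 2.04) and -1.16 (-4.91 and -3.75), so for both the change was in the same direction in both comparisons and larger against Pds5b-/- mESCs.

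Among factors and signaling genes, Sox2 had -0.75 (-0.79 and -0.05), Sox1 -1.63 (-2.91 and -1.28), Pax6 -2.35 (-1.53 and 0.82), Fgf17 -2.36 (-2.95 and -0.58), Gli1 -2.39 (-2.77 and -0.38) and Sgk2 -2.29 (-2.60 and -0.31). Gna14 had -2.82 (-2.33 and 0.49). Tmprss2 had -3.28 (0.71 and 3.99) and Wnt7a -3.16 (0.33 and 3.49), both of which changed mostly in Pds5a-/- siGLO against WT siGLO mESCs. The reason for these differences was not tested, and clone and genotype cannot be told apart.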

How the results depend on the processing

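None of the fold changes of named genes and list members, or chromosome medians, changed sign where called. At an adjusted p under 0.05, 3084 genes were higher in dual depleted than in Pds5b-/- mESCs, 4215 differed between Pds5a-/- siGLO and WT siGLO mESCs (2239 higher, 1976 lower), and the interaction of PDS5A loss with PDS5B state, lower or higher, was called for 2328 (1122 positive, 1206 negative). Requiring a log2 change of 1 or more left 1138 DEGs (817 higher, 321 lower), 958 (600 and 358) and 557 (332 and 225). Leaving out each library gave 2893 to 3524 DEGs of dual depletion against Pds5b-/- (1394 to 1826 higher, 1499 to 1850 lower, with more lower than higher in 5 of the 6 fits), 1763 to 2584 of Pds5a-/- siGLO against WT (936 to 1502 higher, 784 to 1082 lower) and 856 to 1107 interactions. The median log2 fold change of chromosome 8 was -0.53 with DESeq2, -0.53 with RLE, -0.50 with library size only, -0.50 with no filter and -0.54 with only the groups compared, and -0.54 to -0.53 with libraries left out. That of chromosome X was 0.19 with library size only, 0.14 with at least 10 counts in every library, 0.12 without chromosome 8 genes, and 0.14 to 0.18 with libraries left out. The median log2 fold change of chromosome Y was 2.83 with no filter and 4.61 to 4.95 with libraries left out. For DEGs of dual depletion against Pds5b-KO, higher calls were 2218 and lower calls 1678 with library size only, and DESeq2 called 4247. The cause of these shifts was not tested.

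The replicate numbers were not taken to pair the libraries of both states, whose same-number deviations correlated at 0.246, 0.099 and -0.049. Different-number values of both states were between -0.287 and 0.242, and those with replicate 1 of either state were all negative. Replicate 1 of both states may therefore share a source, which was not tested. Between Pds5a-/- siPds5b and Pds5a-/- siGLO mESCs the same-number correlations were 0.694, 0.342 and 0.563, and between Pds5b-/- and WT siGLO mESCs 0.315, 0.244 and 0.103. Libraries with 1 number may thus share a source there too. With the replicate number as a block, 4537 genes were called (2406 higher, 2131 lower), sharing 3918 with the 3921, and the block gave 1622 interactions. Of 34 called named genes, 32 kept an adjusted p under 0.01 in every alternative that tested them, the exceptions being Nes and Tex13. Of 251 called list members and named genes, 175 did. Alternatives that dropped a gene, by a count filter or with its chromosome, did not count against it. The size requirement of 1 or more was not applied here, and Sox2 (-0.79) and Pou5f1 (-0.37), for example, do not meet it. With 3 libraries a state, the spread is estimated from few values, and counts under about 10 per library give uncertain folds.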
